A study of Mus musculus with 4 samples.

Results

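Homeobox genes outside the Hox clusters carried H3K27me3 in both genotypes, and the set described here holds 56 of them among 21887 protein-coding genes on chromosomes 1 to 19, X and Y. The 56 were taken by name and not by a measured value, as 12 LIM, 8 NK, 5 sine oculis (Six2 to Six6), 6 Irx, 6 Dlx and 2 Msx genes, 8 of the Emx, En, Gsx and Gbx families, 4 paired-like genes (Otx and Pitx), and 5 Meis and Pbx genes. All 56 were found in the RefSeq annotation of mouse build mm10.

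CUT&Tag, an assay whose antibody-guided transposase cuts and tags DNA beside a chromatin mark, was run for H3K27me3 on splenic pre-plasma germinal center B cells of 2 Kdm6b B KO mice and 2 wild-type (WT) mice. All 4 mice were C57BL/6, were immunised with sheep red blood cells, were boosted on day 5 and were killed on day 12. Each mouse gave 1 library, so the spread within a genotype holds differences between mice, libraries and peak lists, which cannot be told apart. The sources used here do not give the Cre driver, the deleted part of Kdm6b, the sort markers of pre-plasma cells, or the sex and age of the mice.

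Homeobox proteins are transcription factors that bind DNA through a homeodomain, and most of those described here set regional or organ identity in the embryo. H3K27me3 is written by Polycomb repressive complex 2, is typical of silent developmental genes in differentiated cells, and is removed by the demethylases Kdm6a and Kdm6b. Meis and Pbx proteins are TALE-class cofactors of Hox proteins, and blood progenitors use several of them.

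The genes differed in where the mark sat, and the promoters of 6 of them are shown because the results below turn on them. Each is the 300 bases from 250 before to 50 after the start, from RefSeq on GRCm38.p6 (mm10), written 5′ to 3′ on the gene's own strand, with every CG dinucleotide in capitals. Gbx2 was covered at this window in the KO libraries alone, Isl1 lacked it in 1 WT library, and Pbx2 lacked it in all 4. Nkx6-1 and Lhx8, the members with the most and fewest CG dinucleotides, and Meis1, a blood progenitor gene, were covered throughout.
Gbx2 promoter, chr1:89931127-89931426, minus strand: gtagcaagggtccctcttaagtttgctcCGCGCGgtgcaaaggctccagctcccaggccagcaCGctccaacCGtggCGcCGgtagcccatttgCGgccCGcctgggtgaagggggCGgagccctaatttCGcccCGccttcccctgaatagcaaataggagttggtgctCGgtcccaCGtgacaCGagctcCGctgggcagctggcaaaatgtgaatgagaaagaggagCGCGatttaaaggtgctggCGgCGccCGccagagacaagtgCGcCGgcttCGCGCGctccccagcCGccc
Isl1 promoter, chr13:116309639-116309938, minus strand: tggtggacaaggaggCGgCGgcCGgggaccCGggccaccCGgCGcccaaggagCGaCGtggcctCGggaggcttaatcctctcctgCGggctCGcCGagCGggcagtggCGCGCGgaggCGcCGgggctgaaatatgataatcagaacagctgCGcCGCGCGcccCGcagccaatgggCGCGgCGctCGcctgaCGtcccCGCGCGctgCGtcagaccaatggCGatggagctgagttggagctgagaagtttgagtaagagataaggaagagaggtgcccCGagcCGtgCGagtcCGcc
Pbx2 promoter, chr17:34592009-34592308, plus strand: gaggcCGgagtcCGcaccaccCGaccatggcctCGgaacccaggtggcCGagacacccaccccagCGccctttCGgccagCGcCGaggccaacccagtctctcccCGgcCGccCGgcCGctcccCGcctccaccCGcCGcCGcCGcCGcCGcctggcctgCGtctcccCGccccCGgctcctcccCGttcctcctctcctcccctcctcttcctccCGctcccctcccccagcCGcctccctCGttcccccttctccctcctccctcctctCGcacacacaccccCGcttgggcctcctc
Nkx6-1 promoter, chr5:101664662-101664961, minus strand: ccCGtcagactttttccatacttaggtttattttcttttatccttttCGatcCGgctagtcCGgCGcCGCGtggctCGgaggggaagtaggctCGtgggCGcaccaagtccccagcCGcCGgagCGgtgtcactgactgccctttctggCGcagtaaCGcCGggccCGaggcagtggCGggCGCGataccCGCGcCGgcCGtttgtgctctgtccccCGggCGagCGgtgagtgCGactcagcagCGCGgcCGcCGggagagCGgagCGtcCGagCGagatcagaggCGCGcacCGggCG
Lhx8 promoter, chr3:154330511-154330810, minus strand: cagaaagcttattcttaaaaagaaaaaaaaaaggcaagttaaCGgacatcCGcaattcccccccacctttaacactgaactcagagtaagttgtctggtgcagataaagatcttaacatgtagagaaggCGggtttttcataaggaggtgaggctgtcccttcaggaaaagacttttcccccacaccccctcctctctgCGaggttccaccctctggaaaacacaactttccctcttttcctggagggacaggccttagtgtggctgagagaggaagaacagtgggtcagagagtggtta
Meis1 promoter, chr11:19018920-19019219, minus strand: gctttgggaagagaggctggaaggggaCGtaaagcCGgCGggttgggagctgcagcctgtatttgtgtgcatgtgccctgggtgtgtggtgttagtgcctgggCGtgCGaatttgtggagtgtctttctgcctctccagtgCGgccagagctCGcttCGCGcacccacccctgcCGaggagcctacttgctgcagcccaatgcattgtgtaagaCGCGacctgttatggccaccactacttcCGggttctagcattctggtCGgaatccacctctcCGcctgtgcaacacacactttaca

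The lists gave peak positions and not read counts, so read depth is unknown and the measure used is the covered share, the percentage of bases that lie under a peak. A gene end was called marked where peaks covered at least 25% of the 4000 bp centred on it, taking the end with the higher mean share over the 4 libraries. The lists differed in how much they called, with 144 and 236 Mb covered in KO replicates 1 and 2 against 213 and 101.4 Mb in WT replicates 1 and 2, in 80639 and 90417 peaks against 87486 and 82292. WT replicate 2 was the shortest list, and it had the strictly lowest gene body share at 43 of the 56 genes. Of 12 markers of germinal center B cells, the gene end was marked at 1 and 3 in the KO libraries (Ms4a1 in KO replicate 1; Ms4a1, Cd79a and Cd79b in KO replicate 2) and at 0 and 0 in the WT libraries, and Bcl6 had no coverage in any library. The T cell list of 6 genes was marked at 5 and 6 genes in KO and at 6 and 6 in WT libraries, the myeloid list of 5 at 5 and 5 against 5 and 4, the erythroid list of 4 at 3 and 4 against 4 and 2, and the NK cell list of 4 at 1 and 2 against 1 and 1. A peak borne by some of the cells and one borne by all of them cannot be told apart in sorted bulk cells. Peak positions also do not check the deletion of Kdm6b.

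Nearly all of these genes were under the mark in every library. At the gene end 54 and 54 of the 56 genes were marked in the KO libraries, where the shares of all genes marked were 33.5% and 46.3%. In the WT libraries 55 and 53 were marked, against 40.8% and 26.3% of all genes. In all 4 libraries together 53 of 56 were marked, against 24.1% of all genes. The gene end was covered over its full length in every library at 22 genes. The same share over all genes was not computed, and the end used is the better covered one.

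The mark extended through most gene bodies. The median gene body share over the 56 genes was 94.7% and 98.0% in KO libraries and 95.7% and 84.3% in WT libraries, whereas over all genes it was 0% and 1.1% in KO and 0% and 0% in WT. Gene bodies covered in full numbered 18 and 27 in KO libraries, against 23 and 6 in WT libraries; the backgrounds over all genes were 2.11% and 4.3% in KO and 3.44% and 1.03% in WT. Gsx1, a factor of the ventral forebrain, Nkx2-6, a factor of the pharynx, and the NK gene Nkx3-2, which acts in the axial skeleton, had the whole gene body covered in all 4 libraries. Of all bases in the 56 gene bodies 31.9% were covered in all 4 libraries, against 2.87% for all genes. That was 68.2% of the bases covered in any library at the 56 genes, against 22.2% for all genes.

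**Figure D1:**
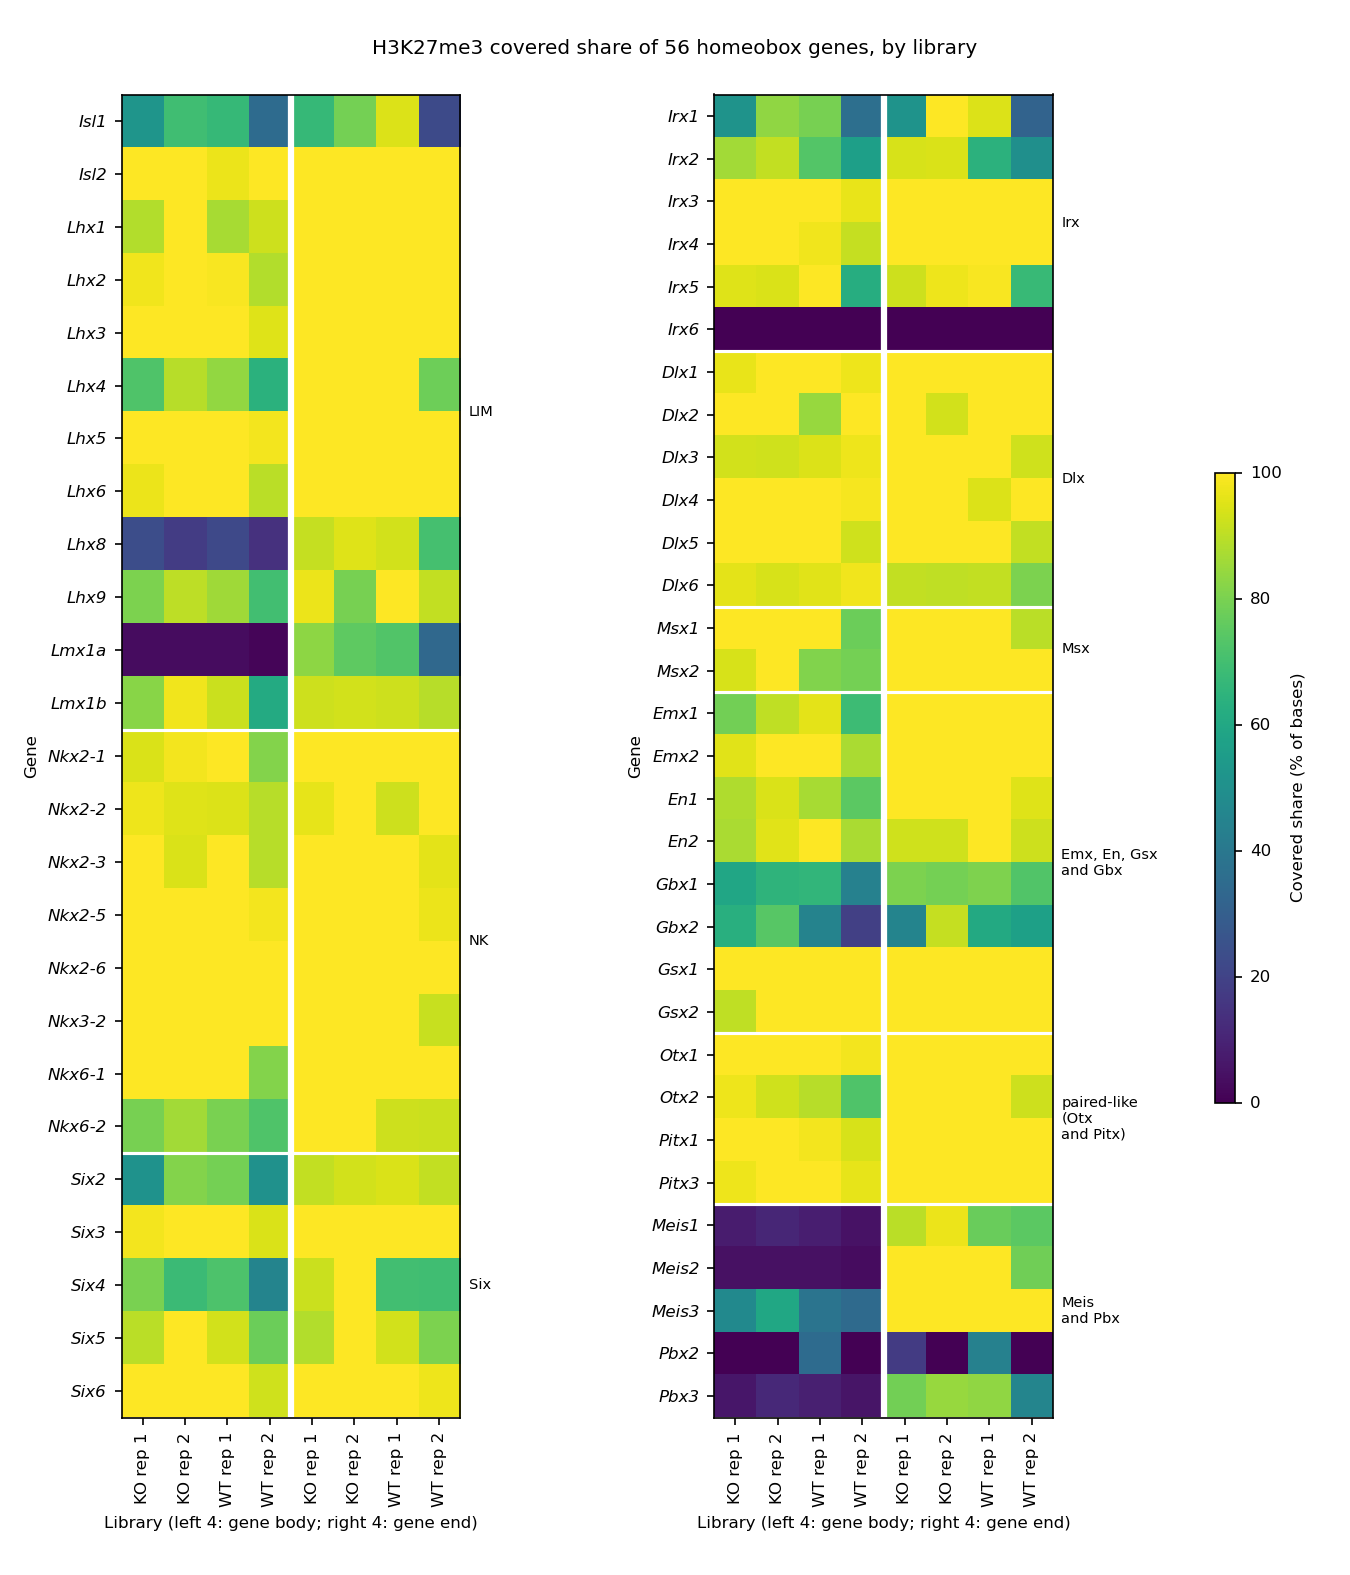
Covered share (% of bases, colour) of 56 homeobox genes by family, with the gene body in the left 4 columns of each panel and the gene end in the right 4, KO libraries before WT libraries. Most cells are near 100%; Irx6 is at 0 throughout, Pbx2 is mostly at 0, and Meis1, Meis2, Pbx3, Lmx1a and Lhx8 combine a low body share with a covered end.

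The LIM genes, which carry LIM domains beside the homeodomain and act in motor neurons, forebrain, limb and gonad, had median body shares of 85.3% and 98.8% in KO and 89.6% and 79.0% in WT libraries, and 11 of 12 were marked in all 4. The exception was Isl1, a gene of motor neurons and heart progenitors, with gene end shares of 67.2% and 79.2% in KO libraries and 94.6% and 22.6% in WT libraries. WT replicate 2 was just below the 25% threshold there, and the genotypes overlapped. The Isl1 promoter printed above was covered to 100% in both KO libraries and in WT replicate 1, and to 0% in WT replicate 2.

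The NK genes, which act in thyroid, lung, heart, gut, spleen and pancreas, were covered nearly throughout, with median body shares of 100% and 99.1% in KO and 100% and 89.3% in WT libraries. All 8 were marked in every library, Nkx2-3, which is needed for normal spleen structure, and Nkx6-1, which acts in pancreatic beta cells, among them. Nkx2-3 had body shares of 100% and 94.1% in KO libraries and 100% and 89.1% in WT libraries, which overlapped.

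The sine oculis genes (Six2 to Six6), which act in eye, kidney and muscle, had median body shares of 89.7% and 100% in KO and 93.3% and 77.7% in WT libraries, and all 5 were marked in every library. The Dlx genes, which pattern the face and limbs and specify interneurons, ranged from 84.7% to 100% over all genes and libraries, with medians of 98.4% and 100% in KO and 97.8% and 97.8% in WT libraries. The Msx genes of tooth, skull and limb had medians of 96.9% and 100% in KO and 90.6% and 78.3% in WT libraries. The Otx and Pitx genes, which act in the head, hindlimb and lens, had medians of 98.7% and 100% in KO and 99.1% and 95.0% in WT libraries. All of these genes were marked in all 4 libraries.

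Emx, En, Gsx and Gbx genes pattern the brain, and all 8 were marked in every library, with median body shares of 87.6% and 94.9% in KO and 97.9% and 81.1% in WT libraries. The Irx genes, which act in heart and neural patterning, were less uniform, with medians of 90.5% and 92.5% in KO and 88.8% and 59.3% in WT libraries, and 5 of 6 were marked in all 4. The sixth, Irx6 (chr8:92674289-92680956, 6668 bp), had no covered base in its body or at either end in any library. Its nearest region under a peak in any list lay 171373 bp away, and the peak-free stretch around it was 390292 bp long. Its neighbours by family, Irx3 and Irx5 on the same chromosome, had body shares of 100% and 100% (Irx3) and 94.9% and 94.2% (Irx5) in KO libraries, against 100% and 96.6% (Irx3) and 100% and 62.3% (Irx5) in WT libraries.

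The Meis and Pbx genes stood lowest for the gene body, with medians of 6.18% and 10.6% in KO and 8.78% and 4.84% in WT libraries. Their gene ends were high, with medians of 89.5% and 96.9% in KO and 83.6% and 74.9% in WT libraries, and 4 of 5 were marked in all 4. Pbx2 (chr17:34592259-34597400), a broadly expressed Hox cofactor, was the exception. Its gene end share was 17.5% and 0% in KO libraries and 44.1% and 0% in WT libraries, and its body share was 0% and 0% in KO libraries and 35.0% and 0% in WT libraries. Only WT replicate 1 passed the threshold, and the Pbx2 promoter was at 0% in all 4 libraries.

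Body shares under 25% on average were found at 7 genes, of which Lmx1a, Meis1, Meis2 and Pbx3 are long, Lhx8 is of middle length, and Irx6 and Pbx2 are short. The median of the mean body share over 4 libraries was 95.7% for the 34 genes of up to 10000 bp (range 0% to 100%), 85.7% for the 16 of up to 50000 bp (range 19.4% to 98.4%) and 7.95% for the 6 longer ones, which were Lhx4, Lmx1a, Lmx1b, Meis1, Meis2 and Pbx3 (range 2.84% to 83.2%, with Lmx1b and Lhx4 high). Where strand was known, the 5′ end was covered more than the 3′ end at 32 of 42 genes and less at 9. Lmx1a, a factor of midbrain dopamine neurons, had 5′ end shares of 83.2% and 75.2% in KO libraries and 72.7% and 33.7% in WT libraries, and its 3′ end was at 0% in all 4. Lhx8, a factor of basal forebrain neurons, showed the same layout, with 91.1% and 95.0% in KO and 93.3% and 70.7% in WT libraries at the 5′ end and 0% in all 4 at the 3′ end.

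Meis1, a factor of blood stem cells, had 5′ end shares of 89.5% and 96.9% in KO libraries and 77.0% and 74.9% in WT libraries, and 3′ end shares of 24.7% and 53.8% in KO libraries and 0% and 0% in WT libraries. Meis2 had 100% and 100% in KO and 100% and 78.5% in WT libraries at its 5′ end. Meis3 had its 5′ end covered to 100% in all 4 libraries. Pbx3, whose strand was not at hand, had 78.8% and 84.5% in KO and 83.6% and 45.3% in WT libraries at the end of higher coordinate. These Meis and Pbx genes thus had a covered end over a body covered in small part, except Meis3, a shorter gene with body shares of 47.4% and 59.7% in KO and 38.5% and 34.5% in WT libraries.

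Around the start of the 42 genes of known strand, the first 1000 bp into the gene had mean shares of 93.5% and 93.6% in KO libraries and 90.7% and 81.5% in WT libraries. Over all 17492 genes of known strand the same bin stood at 24.9% and 34.7% in KO and 30.7% and 19.1% in WT libraries. At 10 kb before the start it was 34.1% and 46.9% in KO and 50.4% and 26.2% in WT libraries, and at 10 kb beyond it was 64.4% and 74.8% in KO and 67.8% and 53.7% in WT libraries. At 50 kb before the start it was 6.72% and 24.1% in KO and 14.3% and 7.67% in WT libraries, beside 11.6% and 18.8% in KO and 16.7% and 8.32% in WT libraries for all genes.

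**Figure D2:**
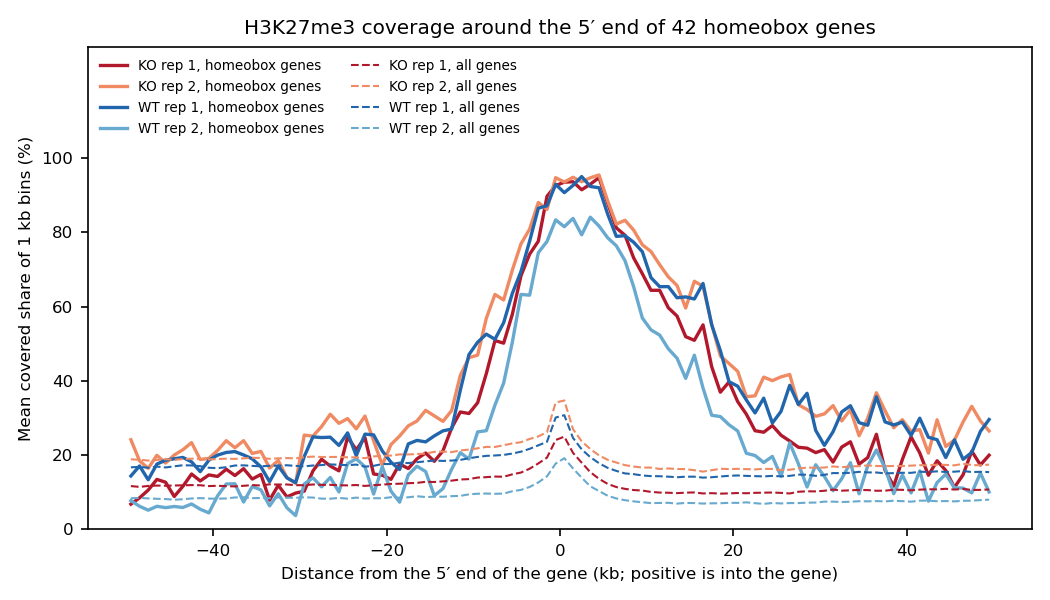
Mean covered share (%) of 1 kb bins against distance from the 5′ end (kb, positive is downstream) in each library, for 42 homeobox genes (solid lines) and all 17492 genes of known strand (dashed lines). Downstream bins lie past the 3′ end of any gene shorter than that distance. The solid lines stand between 81.5% and 93.6% in the first bin downstream and are lower at 10 kb upstream than at 10 kb downstream of the start.

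The peaks at these genes were long within every list. Merging the 4 lists where peaks overlapped or touched gave 53 distinct regions at 55 of the genes. The median over the 56 genes was 20991.5 bp, against 1155 bp over all genes. Genes without a region counted as 0 bp in both medians, so the contrast holds both how often genes were covered and how long regions were. A region of 10000 bp or more lay at 45 of the 56 genes (14.8% of all genes), and one of 20000 bp or more at 31 (5.27% of all genes). The longest single peak at each gene had a median of 10846.5 and 16110.5 bp in KO libraries and 13321.5 and 7325 bp in WT libraries. Because the lists differ in how long their peaks are, the rank within a list is also given. It was a median percentile by length of 99.0 and 98.9 in KO libraries and 98.8 and 99.2 in WT libraries. This rank covers the 54 and 54 genes with a peak in KO libraries and the 55 and 54 in WT libraries. The median lengths of the longest peak count the other genes as 0 bp. The same rank was not computed over all genes.

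The longest merged regions lay at Lhx4, a pituitary factor (47896 bp), at En2, a factor of the midbrain and hindbrain (46575 bp), and at Lhx2, which acts in eye and forebrain (45112 bp). Lhx5, a forebrain gene (44432 bp), Lmx1b, a gene of dorsal limb and kidney (40504 bp), and the interneuron gene Lhx6 (35993 bp) also had regions over 20000 bp. Dlx1 and Dlx2, neighbouring interneuron genes, shared 1 region of 37461 bp, and Dlx5 and Dlx6, neighbours that act in jaw and limb, shared 1 of 22167 bp. At Lhx2 the longest peak was 18848 and 45053 bp in KO libraries and 38031 and 13177 bp in WT libraries. The 2 longer peaks were in the lists that covered most of the genome, 1 of each genotype. Whether the covered length of the lists explains this order was not tested.

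**Figure D3:**
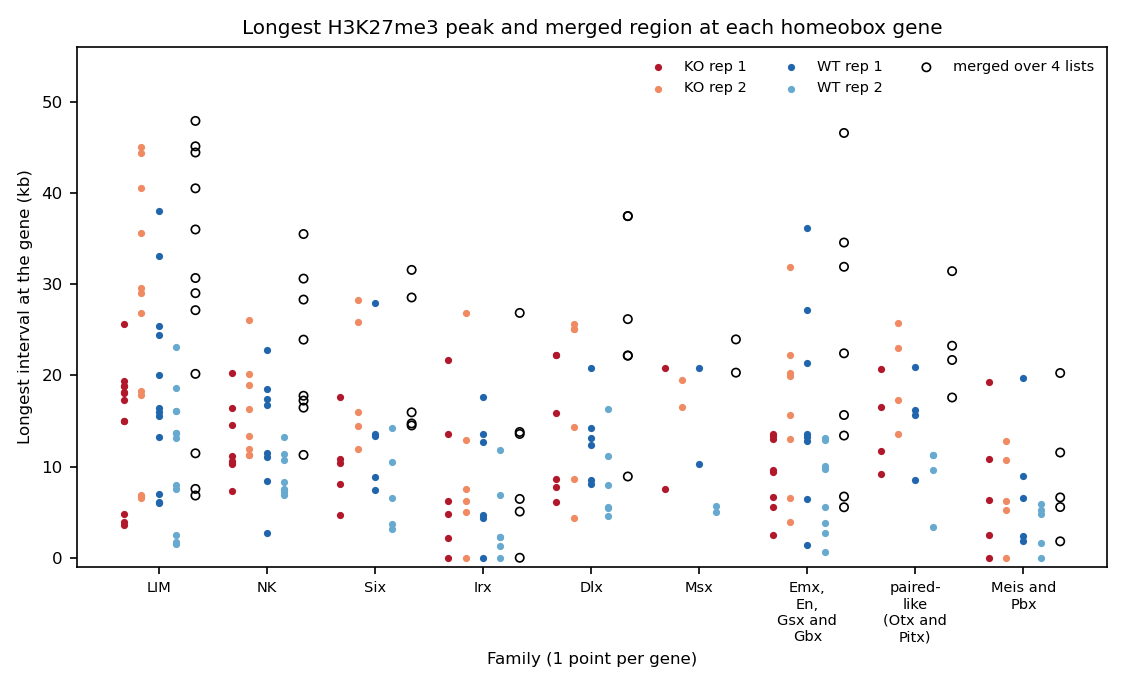
Length (kb) of the longest peak at each homeobox gene in each library (filled points, KO left of WT) and of the longest region of the 4 merged lists (open circles), by family. LIM genes reach the longest regions (up to 47896 bp), and Irx, Meis and Pbx genes include the shortest.

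The comparison of KO with WT asks whether loss of the demethylase moved the mark at these genes. Both KO gene body shares lay above both WT shares at 10 of 55 genes with coverage (18.2%), where 12.3% of all genes tested did so. Both lay below at 1 gene, Dlx3 (1.82%), against 2.75% of all genes. For the gene end, both KO shares lay above both WT shares at 6 of 55 genes (10.9%), against 14.4% of all genes, and at 0 did both lie below, against 2.26%. The members' shares are thus close to the background, and the counts moved with single libraries, as they did over all genes. Without WT replicate 1 the KO library or libraries lay above at 43 of 54 gene bodies (79.6%, against 54.6% of all genes) and at 25 of 55 gene ends (45.5%, against 52.1%). Without KO replicate 1 they did so at 22 of 55 gene bodies (40%, against 58.3%) and at 10 gene ends (18.2%, against 50.8%). In addition, 22 gene ends were covered in full in all 4 libraries and so could not differ.

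No member passed the test. With limma over 13805 gene bodies, 2 genes were called higher in KO at an adjusted p under 0.05 and 0 lower (0.0145% and 0% of those tested), and 0 of 55 members were called (adjusted p = 1 for each). Without adjustment limma put 1 member higher and 0 lower at a p under 0.05, against 216 genes higher and 47 lower in all. Over 13844 gene ends limma called 0 genes higher and 0 lower (0% and 0%), and unadjusted p-values under 0.05 went to 3 members higher and 0 lower, against 490 and 66 genes in all. The median difference, KO minus WT, was 3.67 percentage points over the members' bodies, against 1.53 over all genes tested, and 1.33 over the members' gene ends, against 6.61. With 2 mice against 2 the smallest exact permutation p is 0.33 for a single gene.

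The largest gaps were at single genes. Gbx2 (chr1:89927962-89931176), which helps set the boundary between midbrain and hindbrain, had body shares of 63.0% and 74.2% in KO libraries and 44.7% and 19.1% in WT libraries. Both KO libraries were above both WT libraries, by 36.69 percentage points (SE 12.2, limma adjusted p = 1). Its gene end shares were 45.1% and 91.4% in KO and 60.8% and 56.9% in WT libraries, which overlapped. The tallest peak at Gbx2 ranked by height at percentiles 85.1 and 80.9 in KO lists and 54.8 and 11.8 in WT lists. At its start the KO libraries had a peak over the promoter printed above, spanning -416 to 2024 bp from the start in KO replicate 1 and -616 to 165 bp in KO replicate 2 (negative is upstream). In the WT libraries the first peak inside the gene began 1215 and 1411 bp beyond the start. The promoter was thus at 100% in each KO library and at 0% in each WT library, a pattern held by 1.56% of 10791 promoters with coverage, and the reverse by 0.204%. With every list trimmed to the covered length of the shortest, by peak height, the body shares were 63.0% and 0% in KO and 0% and 19.1% in WT libraries, and the groups then overlapped (difference 21.94). With the upper 50% of peaks by total signal the difference was 65.99, and without WT replicate 2 it was 23.90.

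Irx2, expressed in heart and neural tissue, had gene end shares of 94.0% and 94.4% in KO libraries and 64.2% and 49.8% in WT libraries, a mean of 94.2% ± 0.23 in KO and 57.0% ± 10.2 in WT (SD, n = 2 each). The groups did not overlap, and the difference was 37.26 percentage points (SE 6.82, limma adjusted p = 0.895). Its body shares were 86.0% and 90.7% in KO and 73.3% and 56.3% in WT libraries, also without overlap. Trimming to equal covered length drops whole peaks of low height and shortens none. The tallest peak at Irx2 ranked by height at percentiles 95.6 and 95.4 in KO lists and 95.4 and 92.7 in WT lists. No peak over these Irx2 windows was dropped, so the values stayed as they were, which does not test peak breadth. The gene end difference was 13.67 with 5000 bp and 24.95 with 1000 bp either side of the end. Without WT replicate 2 the body difference was 15.01, against 23.54 with all libraries.

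Six4, a muscle and kidney factor, had gene end shares of 91.8% and 100% in KO libraries and 69.6% and 69.3% in WT libraries, which did not overlap (difference 26.48, SE 4.65, limma adjusted p = 0.895). At equal covered length they were 69.4% and 100% in KO and 69.6% and 69.3% in WT libraries, so that the groups overlapped (difference 15.29). The Six4 difference was 16.47 with 5000 bp either side and 8.44 with both ends averaged. Meis1 had a gene end difference of 17.30 percentage points (SE 4.51, limma adjusted p = 0.895) from the values given above. It depended on the window, at 0.125 with 1000 bp either side, 3.43 with 5000 bp and 28.25 with both ends averaged. Lmx1a differed by 25.96 points at its end, with WT replicate 2 far below the other libraries; the difference was 6.475 without WT replicate 2 and 45.45 without WT replicate 1.

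Msx2, which acts in skull and skin appendages, had body shares of 93.8% and 100% in KO libraries and 81.2% and 79.2% in WT libraries. The groups did not overlap, and the difference was 16.69 percentage points (SE 2.94, limma adjusted p = 1). It stayed at equal covered length, where no peak over the gene body was dropped, so this does not test peak breadth. Meis3, Otx2 and En1 had differences of 17.09, 14.05 and 10.25 points, again with both KO libraries above both WT libraries. The Meis3 difference was 7.68 at equal covered length and 10.93 without KO replicate 2. Without WT replicate 2 the difference was 5.70 at Otx2 and 4.22 at En1, and without WT replicate 1 it was 22.40 and 16.29. Otx2, which is required for head formation, had body shares of 97.4% and 92.6% in KO and 89.3% and 72.6% in WT libraries. Smaller gaps without overlap, KO above WT, were at the bodies of Irx4 (5.33 points), Nkx2-2 (4.31), Pitx1 (3.94) and Lmx1a (1.07). The gene ends of Nkx6-2 (7.85) and Lmx1b (2.09) also had such gaps. Dlx3, a gene of skin and placenta, was the 1 gene with both KO body shares below both WT shares. Its body shares were 93.1% and 92.9% in KO libraries and 94.7% and 97.5% in WT libraries (difference -3.06, and -1.62 without WT replicate 2).

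**Figure D4:**
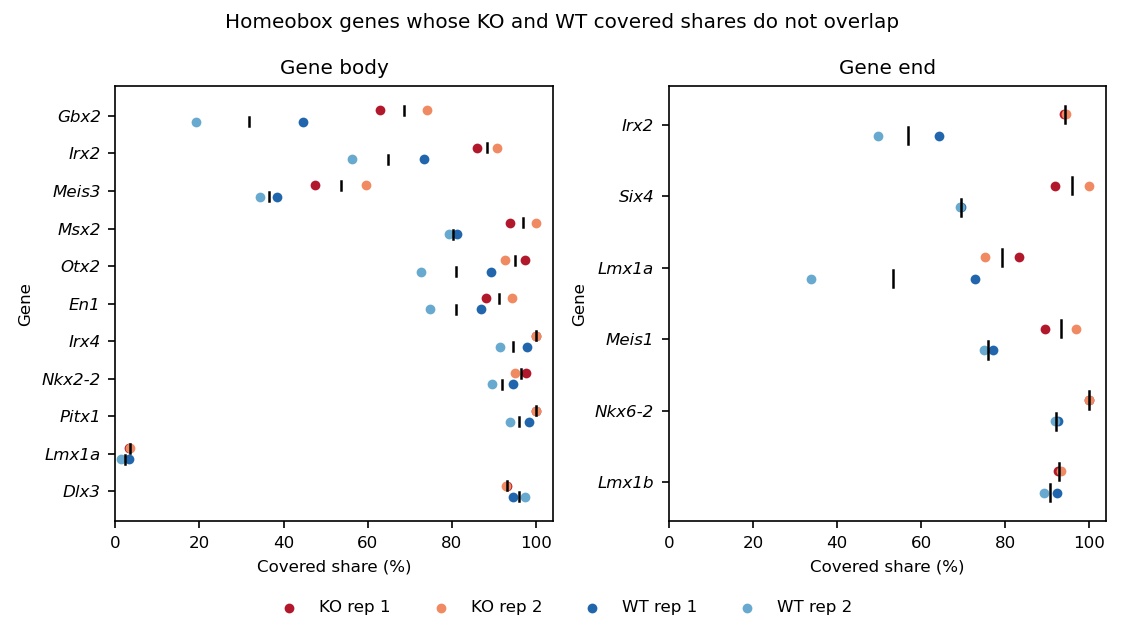
Covered share (%) of the gene body (left) and gene end (right) at homeobox genes whose KO and WT libraries do not overlap; each point is a library, KO row above WT row, and the bar is the mean of n = 2. KO exceeds WT at all but Dlx3, by up to 36.69 percentage points (Gbx2 body) and 37.26 (Irx2 end); none passed the limma threshold.

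Position by position, bases covered in both KO and neither WT library made up 2.13% of the covered bases at the 56 genes (12922 bases), against 3.46% for all genes. Bases covered in both WT and neither KO library made up 0.0995% (605 bases), against 1.15% for all genes. At equal covered length the median difference in body share was 2.51 percentage points over the 56 genes and 0 over all genes. Of the 56 genes 42 were positive, 9 negative and 5 at 0. WT replicate 2 was still the strictly lowest library at 39 of the 56 genes. Trimming kept 53.5% and 18.4% of the peaks in KO lists and 24.2% and 100% in WT lists, the tallest first. The members' median body shares did not change with it, at 94.7% and 98.0% in KO and 95.7% and 84.3% in WT libraries. Whether list length explains the members' difference was not tested. With the lists as deposited, the members' median difference of 3.67 points was 0 without WT replicate 2 and 7.12 without WT replicate 1.

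The promoters of these genes were rich in CG dinucleotides. Of the 56 genes 42 had a promoter in the RefSeq table, and the median was 21.5 CG dinucleotides per 300 bases, taking the richest where a gene had several, against 15 over 17492 genes. At least 10 were present in 39 of the 42 (92.9%), against 59.5% of all genes, and the median GC content was 65.2% against 57.0%. The Pbx2 promoter printed above, which no list covered, held 29, and the covered Lhx8 promoter held 4. Of the 50 promoters of the 42 genes 37 were covered to 100% in all 4 libraries, against 13.3% of all promoters. TAATTA, the core letters bound by many homeodomains, occurred in 3 of the 42 promoters (7.14%) and in 4.55% of all; the motif is its own reverse complement, and a match is not a binding site.

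**Figure D5:**
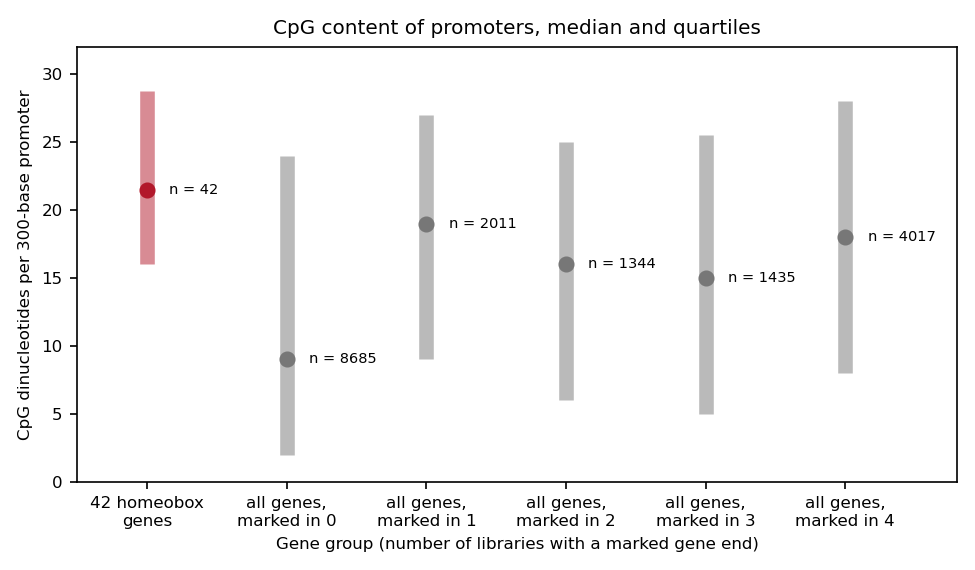
CG dinucleotides per 300-base promoter (median, with bars over the quartiles) for 42 homeobox genes and for all genes by the number of libraries in which the gene end was marked. The homeobox median is 21.5; the other medians run from 9 (marked in 0 libraries) to 19 (marked in 1), with 18 where all 4 libraries were marked.

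Among other homeobox genes the share marked varied by class. Of 107 further homeobox genes found, 81 and 88 were marked in KO libraries and 87 and 80 in WT libraries, 78 in all 4 and 16 in none. The NK and NK-like list had 26 of 28 genes marked in all 4 libraries, and other LIM and paired-like genes 18 of 23. The other Hox-like genes, among them the pancreatic gene Pdx1, had 8 of 9. The POU, CUT, PROS, HNF and zinc finger list had 23 of 39 and the other sine oculis and TALE list 3 of 8. Genes with no marked end in any library included Hhex, which blood progenitors use, and the TALE genes Tgif1, Tgif2 and Pknox1, and Hhex and Tgif1 had 0% in body and gene end in all 4.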

How the data were processed

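H3K27me3 CUT&Tag libraries of 2 KO and 2 WT mice were processed on mm10. The tools named were SEACR, deepTools, Bowtie2 2.4.2, SAMtools 1.11 and Trim Galore 0.6.6, per the submitters' processing notes; the sources used here do not give the SEACR settings. The authors deposited 1 stringent peak list per library, with total and maximum signal per peak; that signal ranked peaks within a list only, and its scale is not stated. No read counts were used, so read depth is unknown.

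Covered shares were computed for RefSeq protein-coding genes (GRCm38.p6) with Python 3.11.15, numpy 2.4.6 and pandas 2.3.3. The test was limma 3.58.1 in R 4.3.3 (lmFit and eBayes without trend, two-sided, Benjamini-Hochberg over all genes with coverage). A check on simulated data used equal noise at every gene, without limits on the shares or unequal lists. It therefore does not show how the test performs on these data. Replicate numbers only name libraries. The genes named were all members not marked in all 4 libraries, those with the 8 longest regions, the 4 lowest body shares, the largest gaps without overlap (up to 8 each way), members sharing a region, and the Meis and Pbx genes; others illustrate families. The members and lists were chosen with earlier results of these data known. Equal covered length, stricter peaks, other windows, thresholds, filters, covariates and leaving out each library were tried.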

Additional observations from a re-analysis of the deposited data

How the results depend on the processing

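No paired analysis was possible because the replicate numbers follow accession order and the labels pair no mice. Members called stayed at 0 in every fit, and the members marked stayed within 1.5 times of their counts under every alternative run. Gene bodies called, 2 with all libraries, were 1 at equal covered length, 5 with the upper 50% of peaks by total signal, 0 with covered length as a covariate, 0 with a trended robust fit, 8 without the coverage filter and 0 to 0 when each library was left out. Gene ends called, 0 as reported, were 21 without that filter. Members with KO body shares above WT numbered 12 to 43 when each library was left out (43 without WT replicate 1, 22 without KO replicate 1). That was 21.8% to 79.6% of members, against 14.8% to 58.3% of all genes. Members below numbered 2 to 8, or 3.64% to 14.5%, against 3.97% to 28.5% of all genes. For the gene end the member count above, 6, was 12 with 5000 bp either side and 16 with both ends averaged. At the 5′ end alone it was 10, over the 42 members of known strand. Shares over all genes were not computed for these windows, so these counts have no background to be read against. Without each library the count above was 7 to 25 (12.7% to 45.5%, against 16.4% to 52.1% of all genes). The count below was then 0 to 7 (0% to 12.7%, against 3.75% to 25.5%). The median merged length of 20991.5 bp was 31543.5 bp when gaps of up to 1000 bp were bridged and 5918.5 bp over bases covered in all 4 libraries, and 17435.5 to 20930.5 bp without each library. With fewer libraries the groups overlap less often by construction; the other causes were not tested. The lists' unequal covered length, 2 mice a genotype, unknown read depth and the ceiling at 100% limit what these shares can show. Of 56 differences (gene body and gene end of 28 named genes), 9 changed sign without WT replicate 2, 5 without WT replicate 1, 3 without each KO replicate and 3 at equal covered length.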

Other observations

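Of the 53 merged regions at these genes 11 also overlapped a protein-coding gene that is not among them. The region at Six5 (31561 bp, chr7:19076524-19108084) also overlapped Dmpk, Dmwd and Bhmg1, and that at Pitx3 (23247 bp) overlapped Gbf1 and Elovl3. These genes were picked after their values were seen.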
